A study of Sus scrofa with 7 samples.

Results

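The 10 genes described here encode muscle-enriched proteins of the pig heart, and those of the Kelch, TRIM and F-box families act in protein turnover. The 10 are the Kelch genes KLHL41, KLHL40, KLHL31 and KLHL38, the TRIM genes TRIM63, TRIM54 and TRIM55, the F-box genes FBXO32 and FBXO40, and TXLNB. TXLNB encodes taxilin beta and belongs to none of these families. All 10 were picked by gene symbol out of 20653 genes, and each gene is represented by its transcript of highest mean across the 7 libraries. That mean takes no account of the treatment labels, but the genes were chosen with earlier results of these data known. All 10 had enough reads to be tested.

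RNA was sequenced from anteromidventricular myocardium taken from male farm pigs. The hearts had been infarcted 14 weeks earlier in the left circumflex (LCX) territory. In 4 pigs, labelled S100a1, an adeno-associated virus of serotype 5 (AAV5) had delivered the human gene S100A1, whose product binds calcium in cardiac muscle. In 3 pigs, labelled hrLuc, the same type of virus had carried luciferase, a reporter enzyme. All 7 animals had thus been infarcted and had received a vector, and neither uninfarcted nor untreated animals are analysed here. Which promoter drove the vector's gene is not stated in the labels. The libraries held 28679324 to 38409552 reads with 1 transcript kept per gene, and single members were covered by 968 to 31206 reads in a library. Of 15 cardiomyocyte markers 13 were tested, and their summed normalized count was 2296650 to 2492440 in S100a1 and 2197680 to 2520780 in hrLuc. Of 12 skeletal muscle markers 7 were tested, and their summed count was 415 to 858 in S100a1 and 843 to 1054 in hrLuc. The pig S100A1 gene itself had 5933 ± 1064 normalized counts (SD, n = 4) in S100a1 and 7718 ± 1298 (SD, n = 3) in hrLuc. Because the vector held the human sequence, pig S100A1 does not check the labels.

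Heart and skeletal muscle mark sarcomere proteins for destruction by attaching ubiquitin, a small protein tag read by the proteasome. Kelch proteins carry a BTB domain that docks on the scaffold cullin 3, and F-box proteins dock on SKP1 and cullin 1, so that each brings its own substrates to a ligase. The TRIM proteins of this group, also called MuRFs, are ligases by themselves through a RING finger and sit on titin and on microtubules. FBXO32 (atrogin-1) and TRIM63 (MuRF1) are the classical marker genes of muscle wasting, and some Kelch proteins instead protect the thin filament.

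KLHL41, TXLNB and FBXO32 were higher in all 4 S100a1 libraries than in any hrLuc library, whereas TRIM63, KLHL40 and KLHL31 had nearly equal means in the groups. The difference was largest for KLHL41, at 1.41-fold. None of the 10 passed the threshold once p was adjusted over all 15661 genes tested (limma, adjusted p under 0.05, which 0.0128% of all genes passed). Without adjustment, 3 members had a p under 0.05 (limma), against 8.26% of all genes in either direction and 3.69% on the higher side. On whole reads recovered from the table, edgeR and limma-voom called 0 members, and DESeq2 called KLHL41 and TXLNB at an adjusted p under 0.05, where it called 0.568% of all genes. Fold changes are S100a1 over hrLuc on the log2(value + 0.5) scale, ± their standard error. In bulk tissue, fewer cells of a type and less RNA per cell cannot be told apart.

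**Figure D1:**
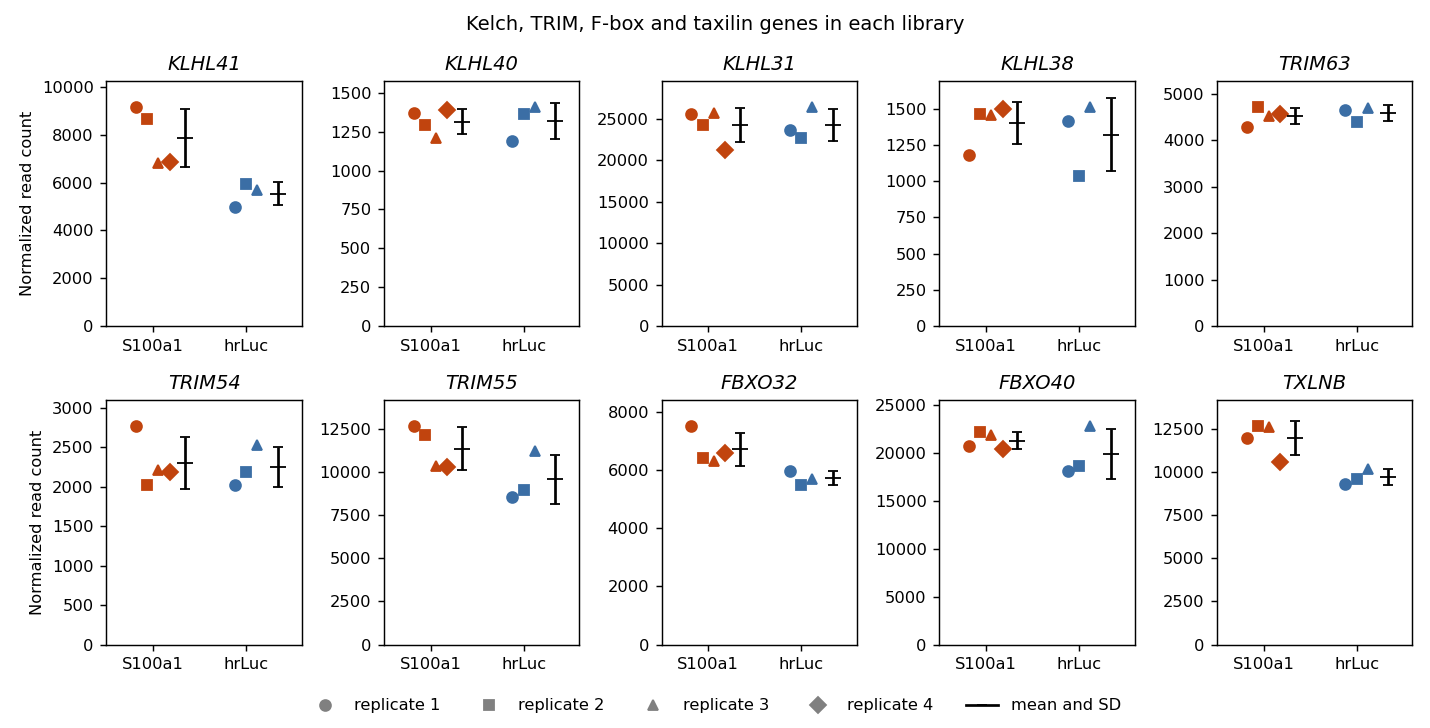
Normalized read count (y axis, from 0) of each gene in the 4 S100a1 and 3 hrLuc libraries, with 1 symbol per replicate and the group mean with its SD in black. For KLHL41, FBXO32 and TXLNB every S100a1 point lies above every hrLuc point, while the points of the other 7 genes overlap.

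Among the Kelch genes, the groups were apart without overlap in KLHL41 alone. In human, mutations of KLHL41 cause nemaline myopathy, and the protein acts on the thin-filament protein nebulin and on NRAP, a scaffold of growing myofibrils. KLHL41 (Sscrofa11.1, chromosome 15, 75875694 to 75893789) had 9155, 8655, 6832 and 6858 normalized counts in S100a1 replicates 1 to 4, against 5002, 5933 and 5689 in hrLuc replicates 1 to 3. The groups did not overlap, and S100a1 replicates 1 and 2 were well above replicates 3 and 4. The mean was 7875 ± 1207 (SD, n = 4) in S100a1 and 5541 ± 483 (SD, n = 3) in hrLuc. This gave a log2 fold change of 0.50 ± 0.12, with a 95% interval of 0.22 to 0.77 (unadjusted p = 0.00281, adjusted p = 0.499, limma). By p-value it was number 87 of the 15661 genes. An exact permutation test on the 7 values (two-sided) gave p = 0.0286, the smallest p that 4 against 3 libraries allow. In the authors' deposited table KLHL41 had a log2 fold change of 0.51 and an adjusted p of 0.0259, and was the 1 member under 0.05, beside 0.927% of the rows of that table. DESeq2 on the recovered reads gave 0.53 and 0.0257.

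KLHL40, another gene of human nemaline myopathy, encodes a muscle protein that in mice stabilizes nebulin and a leiomodin, LMOD3. Its counts were 1369, 1292, 1210 and 1391 in S100a1 and 1188, 1363 and 1408 in hrLuc. The ranges lay almost on top of each other, and the log2 fold change was -0.0026 ± 0.085, with a 95% interval of -0.20 to 0.19 (adjusted p = 0.995, limma). KLHL40 (chromosome 13, 26202607 to 26211528) overlaps HHATL, which had 3648 ± 232 normalized counts (SD, n = 4) in S100a1 and 3570 ± 329 (SD, n = 3) in hrLuc, so the counts of these genes can hold the same reads.

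KLHL31 is expressed in heart and skeletal muscle, and mice without it develop a myopathy with raised filamin C. The 4 S100a1 libraries had 25647, 24242, 25704 and 21298 normalized counts of KLHL31 (chromosome 7, 27088393 to 27106104), and the 3 hrLuc libraries had 23700, 22682 and 26403. The lowest value was in S100a1 replicate 4 and the highest in hrLuc replicate 3. The log2 fold change was -0.0035 ± 0.096, with a 95% interval of -0.22 to 0.21.

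KLHL38, another muscle Kelch gene, lies next to FBXO32 on chromosome 4 (15792997 to 15801473). Its counts were 1184, 1467, 1457 and 1496 in S100a1 and 1418, 1035 and 1511 in hrLuc. A single library stood low in each group, S100a1 replicate 1 and hrLuc replicate 2, and the interval of the log2 fold change was the widest of the 10 genes, from -0.22 to 0.41 around 0.097. Without hrLuc replicate 2 the sign turned, to -0.070. KLHL38 and its neighbour FBXO32 did not share a profile: FBXO32 was highest in the S100a1 library where KLHL38 was lowest.

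Ratios taken within a library do not depend on how the libraries were scaled. The count of KLHL41 was 6.68, 6.70, 5.64 and 4.93 times that of KLHL40 in S100a1 replicates 1 to 4, and 4.21, 4.35 and 4.04 times in hrLuc replicates 1 to 3. These ratios are of counts not corrected for transcript length, so only their difference between groups is read. It was 0.50 on the log2 scale, with a 95% interval of 0.17 to 0.83, and the groups did not overlap. The exact two-sided permutation test gave p = 0.0571, and 0.157 after adjustment over the 11 pairs compared. KLHL41 over KLHL31 differed by the same 0.50, with an interval of 0.13 to 0.87 and the same exact permutation p. Its groups were only just apart, with a ratio of 0.266 in S100a1 replicate 3 and 0.262 in hrLuc replicate 2. KLHL41 over KLHL38 differed by 0.40, with an interval of -0.31 to 1.11. Its groups overlapped, and the exact two-sided permutation p was 0.257. KLHL40 over KLHL31 differed by 0.00092, with an interval of -0.34 to 0.34.

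**Figure D2:**
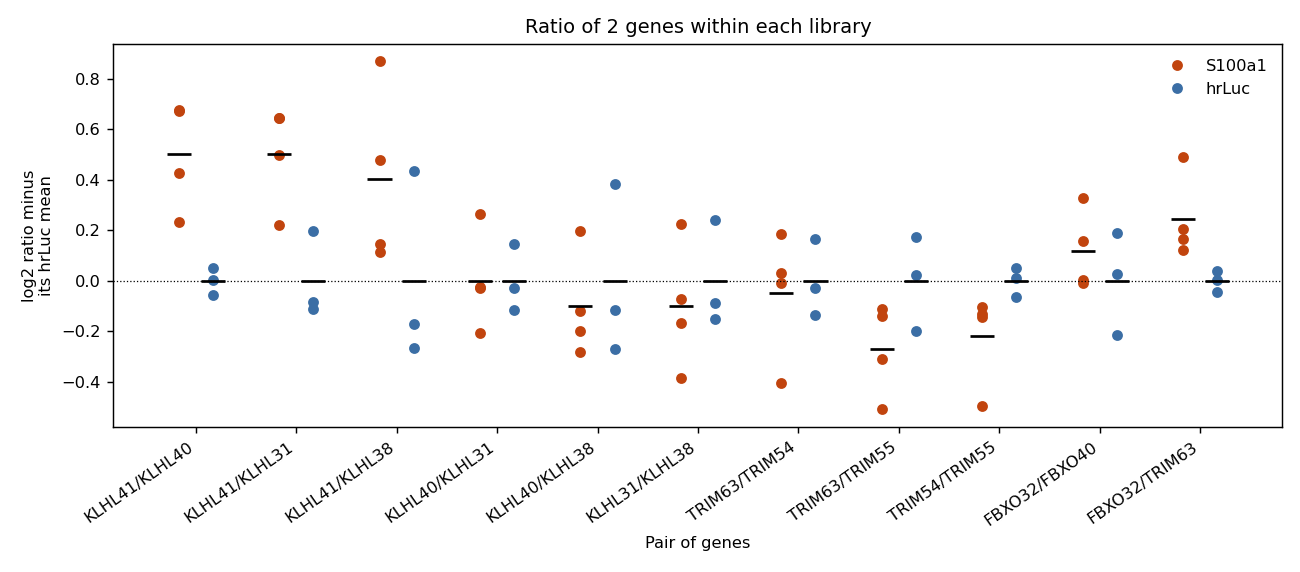
Log2 ratio of 2 genes within each library, minus the mean of that ratio in hrLuc (y axis), for the 11 pairs compared (x axis), with 1 point per library and a bar at the group mean. Higher in every S100a1 library than in any hrLuc library lie KLHL41 over KLHL40, KLHL41 over KLHL31 (only just) and FBXO32 over TRIM63. TRIM54 over TRIM55 lies lower.

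The groups overlapped in all 3 TRIM genes, and their means were closest in TRIM63. TRIM63 encodes the ligase MuRF1, which ubiquitinates myosin heavy chain and troponin I in mice. TRIM63 (chromosome 6, 83493200 to 83507471) had 4295, 4715, 4517 and 4575 normalized counts in S100a1, against 4659, 4392 and 4708 in hrLuc. All 7 hearts lay within this narrow range, and the SD over the 7 values was 3.54% of their mean, the smallest of the 10 genes. Its residual SD on the log2 scale, 0.055, was smaller than that of all but 4.06% of the genes tested. The log2 fold change was -0.019 ± 0.062, and its 95% interval of -0.16 to 0.12 corresponds to 0.895-fold to 1.09-fold (adjusted p = 0.938, limma).

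TRIM55 (MuRF2) links titin to the autophagy receptors NBR1 and p62. TRIM55 (chromosome 4, 68487249 to 68530927) had 12705, 12152, 10353 and 10282 normalized counts in S100a1 and 8579, 8978 and 11243 in hrLuc. The groups overlapped only through hrLuc replicate 3, which exceeded S100a1 replicates 3 and 4. The log2 fold change was 0.25 ± 0.12, with a 95% interval of -0.019 to 0.52 (unadjusted p = 0.0647, adjusted p = 0.614, limma). TRIM55 had 8 transcript rows with 3 different sets of values. The pair of rows with the fewest reads held 93.1% to 94.7% of the count of the row used in S100a1 and 92.2% to 93.6% in hrLuc, so the choice of row moved little.

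TRIM54 (MuRF3) binds microtubules and the other MuRFs. Its counts were 2771, 2020, 2215 and 2182 in S100a1 and 2027, 2182 and 2522 in hrLuc (chromosome 3, 111836038 to 111852468). S100a1 replicate 1 was the highest and S100a1 replicate 2 the lowest of the 7 libraries, and the log2 fold change was 0.030 ± 0.12. Its interval of -0.24 to 0.30 is wide enough to hold the point estimate of TRIM55. The ratio of TRIM54 to TRIM55 was lower in S100a1 by 0.22 on the log2 scale without overlap of the groups (difference -0.22, 95% interval -0.51 to 0.073), with an exact two-sided permutation p of 0.0571, and 0.157 adjusted over the 11 pairs.

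Of the F-box genes, FBXO32 was apart between the groups without overlap. FBXO32 encodes the F-box protein atrogin-1, which in muscle of mice targets calcineurin and the translation factor eIF3f. FBXO32 (chromosome 4, 15895875 to 15925929) had 7524, 6402, 6324 and 6583 normalized counts in S100a1 and 5974, 5494 and 5695 in hrLuc. The groups did not overlap, although S100a1 replicate 3 and hrLuc replicate 1 were close, and S100a1 replicate 1 was the highest by a wide margin. The mean was 6708 ± 554 (SD, n = 4) in S100a1 and 5721 ± 241 (SD, n = 3) in hrLuc, with a log2 fold change of 0.23 ± 0.078 and a 95% interval of 0.051 to 0.40 (unadjusted p = 0.0172, adjusted p = 0.541, limma). The exact two-sided permutation test gave the smallest p possible, 0.0286. Without S100a1 replicate 1 the log2 fold change was 0.17. In the authors' deposited table the adjusted p of FBXO32 was 0.247.

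Set against TRIM63, the other wasting marker, FBXO32 had 1.75, 1.36, 1.40 and 1.44 times its count in S100a1 replicates 1 to 4, and 1.28, 1.25 and 1.21 times in hrLuc replicates 1 to 3. The difference was 0.25 on the log2 scale, with a 95% interval of -0.012 to 0.50. The groups did not overlap, and the exact two-sided permutation p was 0.0571, or 0.157 adjusted over the 11 pairs. The difference in response between these genes thus did not pass. As 4 against 3 libraries can give no p below 0.0286, a single pair could not pass after adjustment over 11 pairs. The adjusted p therefore cannot decide whether the responses differ.

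FBXO40 is a muscle F-box gene whose protein targets the insulin receptor substrate IRS1 in mice. FBXO40 (chromosome 13, 138881528 to 138905410) had 20762, 22261, 21846 and 20407 normalized counts in S100a1 and 18126, 18672 and 22859 in hrLuc. The 4 S100a1 libraries lay close together, inside the range of hrLuc, whose replicate 3 was the highest of all. The log2 fold change was 0.11 ± 0.096, with a 95% interval of -0.11 to 0.32. FBXO40 overlaps HCLS1, a gene of blood cells, which had 6287 ± 406 counts (SD, n = 4) in S100a1 and 6090 ± 939 (SD, n = 3) in hrLuc, and whether these genes share reads was not tested.

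TXLNB belongs to the taxilins, coiled-coil proteins that bind syntaxins, and is the taxilin of heart and skeletal muscle. TXLNB (chromosome 1, 25228602 to 25285303) had 11976, 12670, 12589 and 10559 normalized counts in S100a1, against 9313, 9604 and 10195 in hrLuc. S100a1 replicate 4 came nearest to hrLuc, but the groups did not overlap. The mean was 11948 ± 977 (SD, n = 4) in S100a1 and 9704 ± 449 (SD, n = 3) in hrLuc, a log2 fold change of 0.30 ± 0.082 with a 95% interval of 0.11 to 0.48 (unadjusted p = 0.00583, adjusted p = 0.514, limma). The exact two-sided permutation test gave p = 0.0571. In the authors' deposited table its adjusted p was 0.0634, and in DESeq2 on the recovered reads it was 0.0323. The other taxilins, TXLNA and TXLNG, were at -0.19 ± 0.083 and 0.027 ± 0.094, and neither passed (adjusted p = 0.608 and 0.945, limma).

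**Figure D3:**
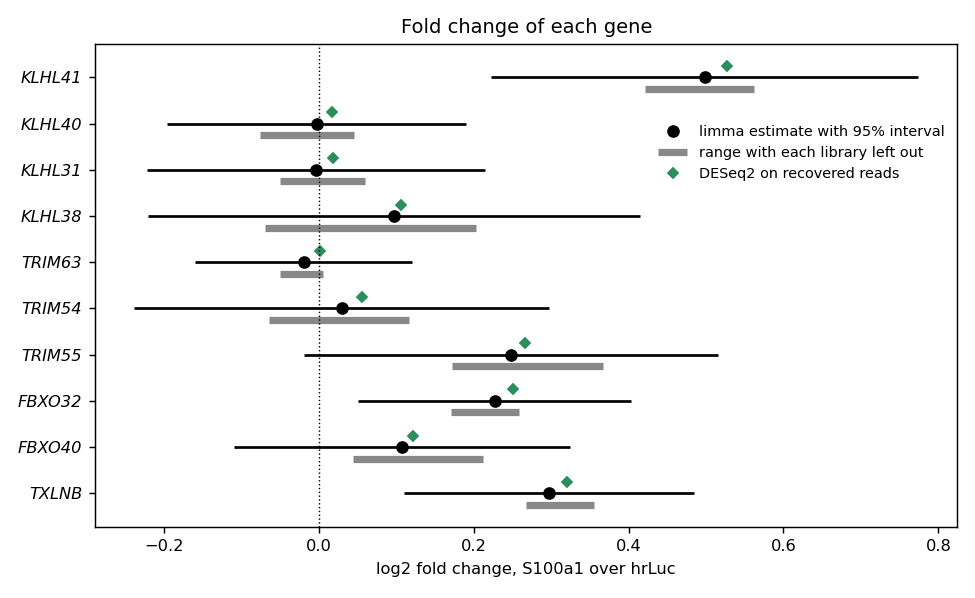
Log2 fold change of S100a1 over hrLuc (x axis) for each gene, with the limma estimate and its 95% interval in black, the range with each library left out in grey, and the DESeq2 estimate on recovered reads as a diamond. The unadjusted intervals of KLHL41, FBXO32 and TXLNB lie above 0, and the grey ranges of KLHL40, KLHL31, KLHL38, TRIM63 and TRIM54 cross it.

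Over the 10 genes the median log2 fold change was 0.10, beside -0.024 over all genes tested. It was 7 of 10 that lay above 0, beside 43.5% of all genes, and this count ran from 6 to 10 over the settings tried, in which 36.5% to 56.4% of all genes lay above 0. The groups did not overlap in 3 members, all higher in S100a1, beside 3.96% of all genes on that side, 5.31% on the lower side and 9.27% in either direction. The 10 genes together took 0.286% ± 0.0163 of the reads (SD, n = 4) in S100a1 and 0.264% ± 0.0173 (SD, n = 3) in hrLuc, with p = 0.171 for this share in an exact permutation test (two-sided).

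One control heart lay high for most members: 8 of the 10 had their highest hrLuc value in hrLuc replicate 3. Without it TRIM55 and FBXO40 joined the genes whose groups did not overlap, making 5, beside 8.34% of all genes on the higher side in the same 6 libraries. The same 5 then had an unadjusted p under 0.05 (limma), beside 7.83% of all genes in either direction, and the median of the 10 was 0.21. Because this library was singled out by the members' own high values, leaving it out raises most of their fold changes by construction. The rise to 5 is therefore a description only. Without hrLuc replicate 2 the median was 0.044, and KLHL41 and TXLNB were the members at an unadjusted p under 0.05 (limma), beside 10.5% of all genes, while FBXO32 was at 0.20 with an unadjusted p of 0.0609. The cardiomyocyte markers were among the highest in hrLuc replicate 3. Their mean log2 value was 16.72, 16.82, 16.76 and 16.67 in S100a1 replicates 1 to 4, and 16.65, 16.66 and 16.82 in hrLuc replicates 1 to 3. Of the 13 tested, 7 had a log2 fold change above 0 and 6 below, with a median of 0.0013. At an unadjusted p under 0.05 (limma), 1 of them was higher in S100a1 and 0 were lower, beside 3.69% of all genes on the higher side. When every library was scaled to these markers, a setting chosen after seeing the data, KLHL41 was at 0.47, TXLNB at 0.27, FBXO32 at 0.20 and TRIM63 at -0.050, and the median of the 10 was 0.072. In that setting KLHL41 and TXLNB kept an unadjusted p under 0.05 (limma), beside 7.70% of all genes, and FBXO32 had 0.0824.

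No marker of the other cell types measured passed the adjusted threshold (limma), and their levels stand here beside the members' differences. Of 10 fibroblast markers 9 had a log2 fold change below 0. Their median was -0.18, and their summed count was 87753 to 140219 in S100a1 and 134801 to 156029 in hrLuc. They had a mean log2 value of 11.69, 12.02, 12.15 and 12.12 in S100a1 and 12.39, 12.11 and 12.15 in hrLuc. S100a1 replicate 1, the library with the highest KLHL41 and FBXO32, had the lowest fibroblast level. Of 10 markers of T and NK cells 9 had a negative value, with a median of -0.80 and a summed count of 1532 to 1890 in S100a1 and 1688 to 2972 in hrLuc. Among them CD3E, CD5, CD4 and GZMH had an unadjusted p under 0.05 (limma), beside 8.26% of all genes in either direction. DESeq2 called CD5, and 0.568% of all genes. Of 10 smooth muscle markers 7 had a negative value, with a median of -0.25 and a summed count of 34780 to 40515 in S100a1 and 36559 to 43895 in hrLuc. Medians were -0.062 for 10 endothelial, 0.014 for 10 macrophage and 0.12 for 6 adipocyte markers. The fibroblast markers COL1A1, LUM and PI16 and the smooth muscle marker NOTCH3 were also lower at an unadjusted p under 0.05 (limma). The endothelial marker TEK and the adipocyte marker FABP4 were higher at that level. No marker of these lists was at 0 in all 7 libraries, and their part in the differences of KLHL41, TXLNB and FBXO32 was not tested.

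**Figure D4:**
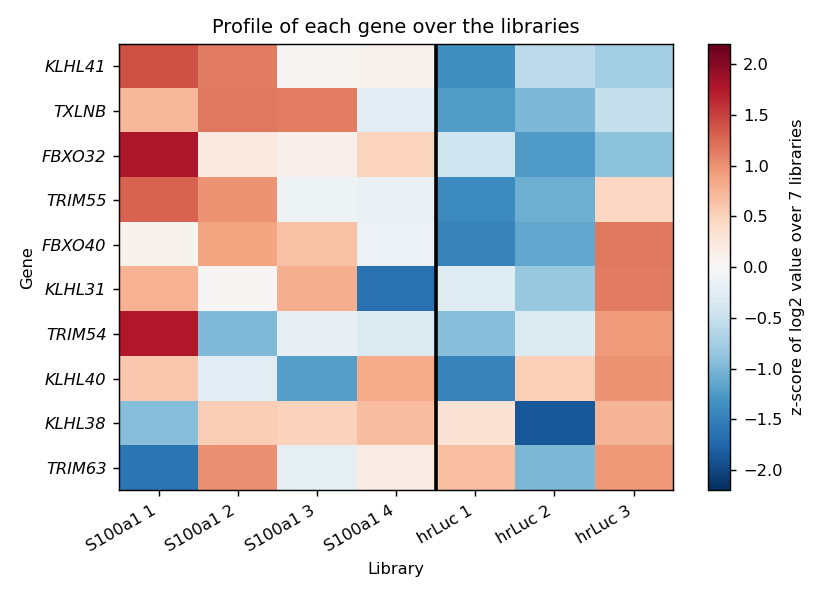
Z-score of the log2 value of each gene (rows) over the 7 libraries (columns, S100a1 left of the black line and hrLuc right of it). KLHL41 and FBXO32 lie above their own mean in all 4 S100a1 columns and TXLNB in 3. KLHL41 in S100a1 replicates 3 and 4 and FBXO32 in S100a1 replicate 3 are only just above it and nearly white. The column of hrLuc 3 is red for 7 of the 10 genes.

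The members did not vary as 1 block. Over the 45 pairs of members the median Pearson r across the 7 libraries was 0.28, and 34 pairs were positive. These r hold the difference between the labels as well as that between hearts, and are given as a description. The highest were KLHL41 with TRIM55 (r = 0.84, Spearman's rho 0.75) and KLHL41 with TXLNB (r = 0.84, rho 0.79). The next was KLHL38 with TRIM63 (r = 0.80, rho 0.71), neither of which was called. TRIM63 ran against TRIM54 (r = -0.54, rho -0.61) and against FBXO32 (r = -0.42, rho -0.18). The classical wasting markers FBXO32 and TRIM63 were thus not positively correlated in these 7 libraries. TRIM63 varied little, with an SD of 3.54% of its mean, so these r cannot decide whether the genes are linked.

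Outside the group, 12418 genes with a mean of at least 100 normalized counts were compared with the members by Pearson r over the 7 libraries. Among those most like the mean z-score of the 10 members were UBA6, a ubiquitin-activating enzyme (r = 0.98), ATP5MF, a subunit of the ATP synthase (0.98), MATR3, a nuclear matrix protein (0.97), and RPL23, a ribosomal protein (0.97). An r over 0.8 with that mean was found for 2.92% of the genes. The genes most like KLHL41 were POU6F1 (0.99), MITF (0.99) and FBXL21P (0.98). Those most like FBXO32 were SAMD13 (0.99), SPATA31D1 (0.99) and RUBCN (0.97), and those most like TRIM63 were SMC3, RBBP7 and SF3B4 (0.996, 0.990 and 0.990). With 7 libraries and 12418 genes such values are the top of a long ranking.

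No gene of the ligase cores into which these adaptors dock passed. Of 18 genes for cullins, their partners and the NEDD8 system, 0 passed the adjusted threshold (limma), 6 were positive and 12 negative, with a median log2 fold change of -0.030. CUL3, the scaffold of the Kelch ligases, had 3776 ± 193 normalized counts (SD, n = 4) in S100a1 and 3727 ± 232 (SD, n = 3) in hrLuc, a log2 fold change of 0.019 ± 0.071. CUL1 was at -0.035 ± 0.062 and SKP1, which holds F-box proteins, at -0.068 ± 0.071. The 1 member of this list at an unadjusted p under 0.05 was UBE2F, a NEDD8-conjugating enzyme, at -0.21, named after its value was seen. edgeR, limma-voom and DESeq2 called 0 genes of this list too, and likewise 0 of the lists of other ligases, deubiquitinases, other Kelch genes, partners and regulators below.

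Other ubiquitin enzymes did not pass either. Among 20 tested ligases and conjugating enzymes described in wasting or sarcomere turnover, 12 were positive and 8 negative, with a median of 0.012, and 0 had an unadjusted p under 0.05 (limma). Among those with the highest counts were CBLB (0.19), WWP1 (0.053) and RNF207 (-0.068). Of 12 deubiquitinases, which remove ubiquitin, 6 were positive and 6 negative, with a median of 0.00017 and 0 at an unadjusted p under 0.05 (limma). USP13, USP47, USP28 and USP25 had the highest counts and log2 fold changes of 0.11, 0.079, 0.20 and 0.12. Of 36 other Kelch genes 12 were positive and 24 negative, with a median of -0.031. KLHL24 was at 0.15 and IVNS1ABP at 0.12. KLHL30, singled out after its value was seen as the 1 at an unadjusted p under 0.05 (limma), was at -0.65, with 1128, 1183, 1624 and 1594 counts in S100a1 and 2264, 1556 and 2769 in hrLuc, so that its groups overlapped.

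Partners and substrates of the members gave a mixed picture. Of 25 tested, 0 passed the adjusted threshold (limma), and the median was -0.017. An unadjusted p under 0.05 (limma) was found for 3, all positive, beside 8.26% of all genes in either direction and 3.69% on the higher side. The 3, named after their values were seen, were NRAP, LMOD2 and IRS1. NRAP, a described substrate of KLHL41, had 47829, 37380, 33610 and 40978 normalized counts in S100a1 and 25027, 30337 and 35930 in hrLuc, and its log2 fold change was 0.40 ± 0.15 (limma adjusted p = 0.568). The groups overlapped through S100a1 replicate 3 and hrLuc replicate 3. LMOD2, a leiomodin of the cardiac thin filament, was at 0.35 ± 0.14, and IRS1, a described substrate of FBXO40, at 0.36 ± 0.13. Nebulin (NEB) varied widely among hearts, with 18619, 10242, 5171 and 9799 counts in S100a1 and 8599, 22126 and 8076 in hrLuc. FLNC, the filamin linked to KLHL31, was at 0.15 ± 0.12 and EIF3F, the factor linked to FBXO32, at 0.099 ± 0.096. The partners with the highest counts were TTN (0.064 ± 0.47), MYH7 (0.084 ± 0.28), ACTA1 (-0.099 ± 0.18) and CKM (-0.017 ± 0.17). These limma standard errors lean on a mean-variance trend over all genes and are not the spread between hearts alone. MYH7 had 1099620 ± 52783 normalized counts (SD, n = 4) in S100a1 and 1039750 ± 104663 (SD, n = 3) in hrLuc.

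Regulators of FBXO32 and TRIM63 include the FoxO transcription factors, which drive both genes in wasting muscle, and AKT, which keeps FoxO out of the nucleus. Of 26 regulators tested, 15 were positive and 11 negative, with a median of 0.044, and 0 passed the adjusted threshold (limma). Without adjustment 4 had a p under 0.05 (limma), beside 8.26% of all genes. FOXO3 had 9372, 10909, 9778 and 9924 normalized counts in S100a1 and 8199, 8902 and 9093 in hrLuc, without overlap, and a log2 fold change of 0.19 ± 0.075. IGF1R, the receptor of insulin-like growth factor 1, was at 0.34 ± 0.13. AKT1 and PPARGC1A were named after their values were seen. AKT1 had 2937, 3050, 3109 and 3400 counts in S100a1 and 4061, 3692 and 3642 in hrLuc, again without overlap, and a log2 fold change of -0.28 ± 0.073. PPARGC1A, a coactivator of mitochondrial genes, was at 0.31 ± 0.13. None of these 4 had an adjusted p below 0.514 (limma). The related genes FOXO1 (0.088 ± 0.063), FOXO4 (-0.020 ± 0.082) and AKT2 (-0.032 ± 0.081) did not show the same separation, and their groups overlapped. In this list the groups were also apart, higher in S100a1, for IGF1R, MEF2A and SMAD3. Over all genes tested, the groups were apart for 3.96% on the higher side and 5.31% on the lower side. FOXO1, FOXO4, AKT2, MEF2A and SMAD3 were likewise named after their values were seen. MEF2C was at 0.055 ± 0.077 and PRKAA2, a catalytic subunit of AMP-activated kinase, at 0.20 ± 0.095.

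None of the other FoxO targets and autophagy genes passed the adjusted threshold (limma). Of 22 tested, 9 were positive and 13 negative, with a median of -0.023. TXNIP was at 0.15, PINK1 at -0.023, SESN1 at 0.18 and CAT at -0.050, the 4 with the highest counts. PDK4, a kinase that restrains pyruvate oxidation, was the 1 gene at an unadjusted p under 0.05 (limma), named after its value was seen. It had 1484, 1284, 748 and 998 counts in S100a1 and 751, 599 and 543 in hrLuc, and its log2 fold change was 0.80 ± 0.22 (limma adjusted p = 0.514). S100a1 replicate 3 lay just below hrLuc replicate 1, so the groups overlapped. DESeq2 called PDK4 and no other gene of this list.

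**Figure D5:**
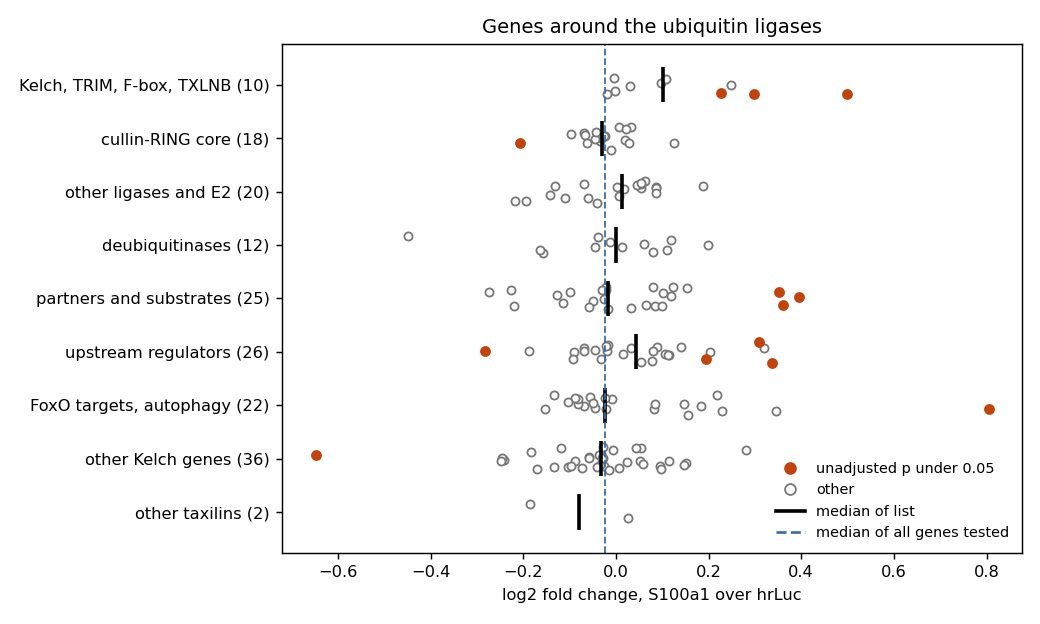
Log2 fold change of S100a1 over hrLuc (x axis) for the tested genes of each list (rows, number tested in brackets), with the median of a list as a black bar and the median of all genes tested as a dashed line. Filled points have an unadjusted p under 0.05. The lists around the ligases have medians from -0.031 to 0.044, against 0.10 for the 10 genes, and the 2 other taxilins have a median of -0.079.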

How the data were processed

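Ribosomal RNA was depleted and libraries were prepared with TruSeq reagents from Qiagen-purified total RNA, per the labels' protocols. FastQC 0.11.8, DESeq2 1.33.1, R 4.1.2 and the build Sscrofa11.1 are named in the submitters' processing notes without a role. Aligner, counter and strand setting: not given in the sources used here. For every library the authors deposited a signal, which proved to be transcript read counts over a size factor, since 100% of values in every library were whole multiples of 1 read within 0.01 read. Whole reads were therefore recovered. The authors' deposited log2 column and ratio (fold) column compare S100a1 with hrLuc, and the deposited p-value column is their adjusted p. Sample titles give each library as a separate pig, and the column names match the titles.

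Of 63562 transcript rows, all matched RefSeq genes of Sscrofa11.1, and the row with the highest mean stood for each of 20653 genes. Genes reaching 10 normalized counts in 3 or more libraries were fitted with limma 3.58.1 (R 4.3.3, mean-variance trend, no covariates, Benjamini-Hochberg over 15661 genes, two-sided, threshold 0.05). limma was the branch fixed for normalized values. edgeR 4.0.16, DESeq2 1.42.0 and limma-voom were run on the recovered reads of the same genes. The 95% intervals use limma's 5 residual and 3.84 prior degrees of freedom, or for ratios the pooled SD of the 7 values. The limma fit was tested on simulated counts.

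The members, gene lists and tests were chosen with earlier results of these data known. Text names all 10 members, the up to 4 genes of highest mean in each list and any past the threshold, and the genes most like the members. Alternatives were other pseudocounts, filters, scalings, transcript rows, a robust prior, a replicate block, other tools, a threshold of 0.10 and each library left out. Promoter and protein sequences were not analysed here. Results for some genes that the naming rule selects are not reported here.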

Additional observations from a re-analysis of the deposited data

Results flagged for a closer look

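KLHL38 in S100a1 replicate 1 had 1184 normalized counts, while the other 3 S100a1 libraries lay between 1457 and 1496, a gap of 0.875 of the range of the group. The log2 ratio of TRIM54 to TRIM55 in S100a1 replicate 2 was -2.59, a gap of 0.899 of the range. Both gaps exceed Dixon's 95% critical value for 4 samples, which chance exceeds in about 1 of 20 groups, and 21 groups were examined. Groups of 3 such as hrLuc were not examined this way.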

How the results depend on the processing

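Over the 22 alternative settings the log2 fold changes of KLHL41 (0.42 to 0.56), TXLNB (0.25 to 0.36), FBXO32 (0.17 to 0.27), TRIM55 (0.17 to 0.37) and FBXO40 (0.037 to 0.21) stayed positive. DESeq2 called 2 members, KLHL41 (0.53, adjusted p = 0.0257) and TXLNB (0.32, adjusted p = 0.0323), and no other setting called a member, among them the threshold of 0.10. With each library left out, adjusted p ran from 0.342 to 0.927 for KLHL41 and from 0.423 to 0.927 for TXLNB (limma). The median of the members ran from 0.044 to 0.21 with each library left out. Genes called over the whole table numbered 1 higher and 1 lower. They were 54 higher and 35 lower in DESeq2, 0 and 0 in limma-voom (1278 at an unadjusted p under 0.05), 2 and 1 with quantile normalization, 1 and 0 with median centring, 0 and 1 with scaling to cardiomyocyte markers, and 2 higher at the threshold of 0.10. With a library left out they were 0 to 1 higher and 0 to 3 lower.

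Median centring adds the same 0.047 to every gene and scaling to cardiomyocyte markers the same -0.030, so signs and list medians that turn under either follow from the scaling and say nothing of single genes. Signs turned for genes next to 0. KLHL40 was at 0.017 in DESeq2, 0.018 in edgeR, 0.021 in limma-voom, 0.044 with median centring and 0.017 with quantile normalization, and ran from -0.077 to 0.046 with a library left out. KLHL31 was at 0.019, 0.020 and 0.019 in DESeq2, edgeR and limma-voom and 0.044 with median centring, and ran from -0.051 to 0.059. TRIM63 was at 0.0010, 0.0028 and 0.0026 in these tools and 0.028 with median centring, and ran from -0.050 to 0.0055. TRIM54 was at -0.00079 scaled to cardiomyocyte markers and ran from -0.064 to 0.12, and KLHL38 ran from -0.070 to 0.20. In DESeq2, edgeR and limma-voom the median of all genes tested also lay higher, at -0.0029, -0.0014 and -0.0026, beside -0.024 in the main fit. The cause of the turns outside median centring and scaling to cardiomyocyte markers was not tested.

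List medians moved beyond their spread, in the 2 scalings by these constants alone, for deubiquitinases (0.047 with median centring, -0.030 scaled to cardiomyocyte markers, -0.00064 to 0.033 with a library left out), other Kelch genes (0.016 and -0.062 in the same scalings) and regulators (0.086 in DESeq2, 0.087 in edgeR, 0.091 with median centring, 0.018 to 0.10 with a library left out). Partners ran from -0.019 to 0.076 and FoxO targets from -0.045 to 0.073 with a library left out.

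With replicate numbers as a block, 0 genes were called in each direction (1011 at an unadjusted p under 0.05, limma), KLHL41 was at 0.56 and KLHL31 at 0.057. S100a1 replicate 4 has no partner and drops out of that fit. The correlation of deviations of same-numbered libraries was -0.022, -0.075 and 0.082, and that of differently numbered libraries ran from -0.156 to 0.195. Deviations within a group cancel, so with so few libraries these values cannot decide whether same-numbered samples were paired. Depth did not limit the members, of which the least covered had 968 reads in a library, and 7 pigs limit the smallest exact p to 0.0286.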
